A study of Mus musculus with 7 samples.

Results

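Hepatokines are proteins that the liver releases into the blood and that act on other organs. The genes of 9 of them with roles in appetite, lipid handling or metal and mineral transport (Gdf15, Fgf21, Angptl4, Angptl8, Lect2, Ahsg, Fetub, Selenop and Enho) were taken by symbol from a table of 23594 genes measured in the livers of 7 mice, 4 TgLC and 3 TgL. All 9 were in the table, and 8 were tested, since they were among the 13145 genes that averaged 10 or more normalized counts. Fgf21 was below that level. Both genotypes carry a transgene at the Rosa26 locus in which the mouse LIF gene, a cytokine of the IL-6 family, stands behind the CAG promoter and a STOP cassette. TgLC mice also carry R26-Cre ERT2, so that tamoxifen (TAM) turns on LIF throughout the body and not in the liver alone, and TgL mice lack Cre. All 7 mice received a single weight-adjusted i.p. injection of TAM at 8 weeks of age, so the TgL mice are controls for TAM and for the silent transgene, while Cre itself is present in the TgLC mice only. The paper used a lower TAM dose per body weight in females than in males. In the paper, TgLC mice ate less and lost weight after TAM. Whether the TgL mice here were pair-fed, or any mouse fasted, is not given in the sources used here. Effects of LIF and of lower food intake on the genes below therefore cannot be told apart. Sex, litter and the day of collection are not given per mouse in the sources used here, and the mouse numbers below only name the animals.

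GDF15 lowers food intake through the receptor GFRAL in the hindbrain, and FGF21 acts on fat and brain through FGF receptors bound to beta-Klotho. ANGPTL4 inhibits lipoprotein lipase and ANGPTL8 takes part in the same control, which steers triglycerides between tissues. AHSG (fetuin-A) and FETUB (fetuin-B) are cystatin-type plasma proteins, selenoprotein P carries selenium from liver to brain and testis, LECT2 is a chemotactic factor made by hepatocytes, and adropin, the product of Enho, is a small peptide linked to lipid and glucose use.

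The promoters of 3 of the genes are shown because Gdf15 had the largest fold change of the 8 genes and because Fgf21 and Angptl8 were the only members with a match to a searched motif. RefSeq promoter windows (GRCm38.p6, 250 bases before to 50 bases after a gene's start) were found for 7 of the 9 genes, with 11 windows in all, and Angptl4 and Enho had none. The 250 bases before the start are printed 5′ to 3′ on the strand of the gene. They lie at chr8:70632457-70632706 on the minus strand for Gdf15, chr7:45615491-45615740 on the minus strand for Fgf21 and chr9:21835260-21835509 on the plus strand for Angptl8. Capitals mark a match to TGATGNAA, a composite of half-sites for C/EBP and ATF proteins, read on either strand.
Gdf15: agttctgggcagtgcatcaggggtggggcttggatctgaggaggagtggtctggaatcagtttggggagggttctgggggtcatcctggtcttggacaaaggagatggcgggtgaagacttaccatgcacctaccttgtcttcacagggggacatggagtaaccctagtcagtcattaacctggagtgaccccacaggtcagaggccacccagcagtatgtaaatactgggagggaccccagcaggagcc
Fgf21: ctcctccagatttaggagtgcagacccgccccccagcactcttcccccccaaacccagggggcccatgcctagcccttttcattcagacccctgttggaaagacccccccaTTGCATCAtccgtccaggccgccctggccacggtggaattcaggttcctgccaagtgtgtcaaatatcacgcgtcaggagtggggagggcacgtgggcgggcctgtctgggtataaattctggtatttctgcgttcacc
Angptl8: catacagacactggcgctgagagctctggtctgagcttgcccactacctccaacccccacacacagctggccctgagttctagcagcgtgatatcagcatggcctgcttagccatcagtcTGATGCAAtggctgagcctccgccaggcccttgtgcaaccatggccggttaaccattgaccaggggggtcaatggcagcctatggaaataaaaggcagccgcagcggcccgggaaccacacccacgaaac

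The match begins 139 bases before the start of Fgf21, where it reads TTGCATCA, and 130 bases before the start of Angptl8, where it reads TGATGCAA. TGATGNAA occurs on either strand in 3.97% of all 32851 promoter windows. The STAT letters TTCNNNGAA occur in 8.30% of the windows and in no window of these genes, and the direct repeat of AGGTCA with 1 base between its copies, a form bound by PPAR and HNF4 proteins, occurs in 0.0396% of the windows and also in none of theirs. A match describes letters only, and its absence says only that these letters are not in the window.

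Library depth was 11325974 to 12448961 reads in genes in TgLC livers and 9367681 to 11030699 in TgL livers. Lif, the check of the labels, had 10, 12, 10 and 25 reads in TgLC livers and 1, 2 and 0 reads in TgL livers. Its groups did not overlap (exact permutation test of the normalized counts, two-sided, p = 0.0571, where 4 mice against 3 can give none smaller). Hepatocyte markers were high in every library, with a summed level over 10 genes of 906151 to 997420 normalized counts in TgLC livers and 1304106 to 1353396 in TgL livers. Most of the sum was Alb, with means of 629206 in TgLC livers and 959092 in TgL livers, which did not pass (limma adjusted p = 0.169). Of the 10 genes Tat and Arg1 rose, Cps1, Ass1 and Ttr fell, and 5 did not pass. All 11 tested exocrine pancreas genes were lower in TgLC livers, with sums of 39.0 to 53.6 against 749 to 1210 in TgL livers. Of the 14 pancreas genes measured, 12 were at 0 in at least 1 mouse. Prss2, Cpa1, Cpb1, Cela3b, Pnlip, Try4, Clps and Pnliprp1 were at 0 in every TgLC liver. Ctrb1 and Cela2a averaged 0.25 and 3.02 in TgLC livers. These genes reached the mean of 10 only through TgL livers, so the filter favoured their fall. Cela1 averaged 45.7 in TgLC livers and 265 in TgL livers, above 10 in both groups. Amy2a5, Try5 and Zg16, also at 0 in TgLC livers, were not tested. Of the 8 adipocyte genes in the table, with sums of 186 to 623 in TgLC livers and 157 to 337 in TgL livers, 3 were tested and none passed, and 6 were at 0 in at least 1 mouse. Among these, Adipoq and Plin1 were detected in TgLC 1 and 2 and TgL 1 and 2, whose titles form 1 run of numbers, and were at 0 in the 3 mice with other titles, while Fabp4 and Lipe were detected in all 7 mice. Of the neutrophil markers 3 of 4 tested rose (S100a8, S100a9 and Retnlg). The sums over the list were 100.2 to 214 in TgLC livers and 31.9 to 99.9 in TgL livers, and 7 of the 10 listed were at 0 in at least 1 mouse. Retnlg and S100a8 averaged 1.01 and 5.25 in TgL livers and reached the mean of 10 only through TgLC livers, so the filter favoured their rise. The remaining listed markers were below the filter and not tested. Of 10 stellate cell and fibroblast markers 4 rose (Lum, Rgs5, Dcn and Des), with sums of 3629 to 11095 in TgLC livers and 3405 to 3824 in TgL livers. Beside these marker counts, 16.2% of all genes tested rose and 15.0% fell. The part of these cell types in the results below was not tested. Xist was detected in every library at 3521 to 7618 normalized counts in TgLC livers and 7445 to 9246 in TgL livers. The Y-linked genes Ddx3y, Uty, Kdm5d and Eif2s3y had 0 to 10.2 normalized counts in the 7 mice, so all 7 libraries had the pattern of female livers. Normalized counts are reads divided by a size factor per mouse. When the libraries were instead scaled to equal totals, the median log2 fold change of all genes tested moved to -0.31, against 0.0018 with the size factors, so values on that scale are to be read relative to the shifted median.

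Of the 8 genes tested, Gdf15 and Fetub rose (2 genes) and Lect2 and Selenop fell (2 genes) in TgLC livers, while Ahsg, Angptl4, Angptl8 and Enho did not pass the test. Under equal library totals 1 of them rose, since Fetub no longer passed, and 3 fell, since Angptl8 passed, and on leaving out 1 mouse 2 rose in each fit while 0 (without TgL 1) to 3 (without TgLC 3) fell. Among all 13145 genes 16.2% rose and 15.0% fell by the same rule (limma on log2(value + 1), adjusted p under 0.05), 31.2% in either direction, and under equal library totals 8.87% rose and 32.9% fell. The median log2 fold change over the 8 genes was -0.08. Both groups were fully apart in 4 of the 8 genes, as they were in 41.1% of all genes tested. The list as a whole thus had calls in both directions and a median close to 0. In bulk liver, fewer cells of a type and less RNA per cell cannot be told apart.

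**Figure D1:**
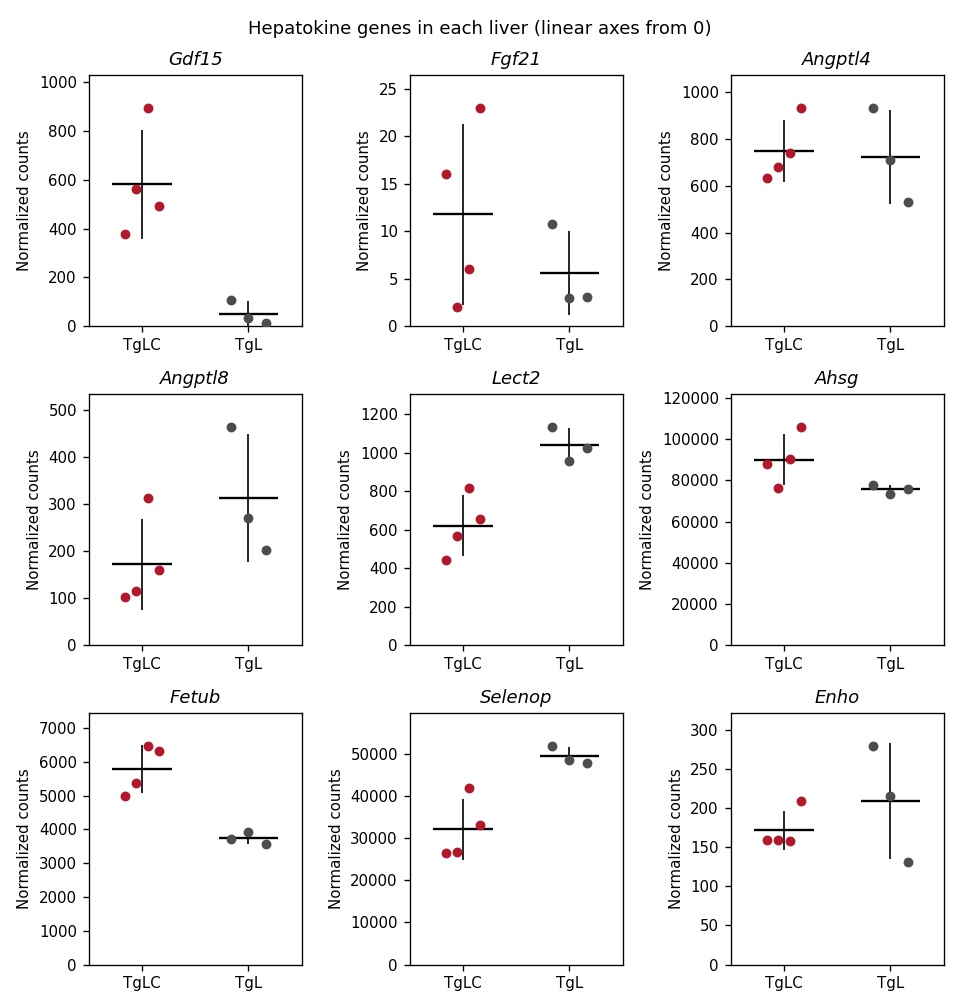
Normalized counts (linear axes from 0) of the 9 hepatokine genes in each liver, TgLC (red, n = 4) left of TgL (grey, n = 3), with the mean (horizontal line) and SD (vertical line). The groups are apart for Gdf15, Lect2, Fetub and Selenop and share part of their range for the other 5 genes.

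Gdf15, the stress-induced cytokine of the TGF-beta superfamily that lowers appetite, had 378, 562, 897 and 492 normalized counts in TgLC livers and 109, 31.9 and 14.3 in TgL livers. All TgLC mice were above the highest TgL mouse, and TgLC 3 was the highest. The means were 582 ± 223 in TgLC livers and 51.7 ± 50.4 in TgL livers (SD, n = 4 and n = 3), an 11.3-fold difference. The log2 fold change was 3.86 (SE 0.57, 95% confidence interval 2.57 to 5.16, limma adjusted p = 0.0012), and 86 of the 13145 genes had a larger one. It passed the test without any single mouse, at 3.20 to 4.63. The size of the ratio moved most with TgL 1, the TgL mouse with the highest level, without which the means differed 25.2-fold. In TgLC 1 and 2 against TgL 1 and 2 alone the log2 fold change was 2.94. Gdf15 (GRCm38, chr8:70629393-70632456, minus strand) overlaps no other annotated gene.

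Fgf21, the fasting-induced endocrine FGF, had 16.0, 2.05, 6.07 and 23.0 normalized counts in TgLC livers, from 16, 2, 6 and 23 reads. In TgL livers it had 10.7, 2.99 and 3.06, from 12, 3 and 3 reads. The groups overlapped, and in each of them the highest mouse had several times the level of the lowest. With a mean of 9.13 over all mice Fgf21 was under the level needed for the test, and an exact permutation test of the level gave p = 0.400 (two-sided). The test thus found no difference, at 2 to 23 reads per mouse and with a wide spread between the mice of each group. Fgf21 (chr7:45613886-45615490, minus strand) is also a product of exocrine pancreas, whose marker genes were present in TgL livers at the low levels given above, and their part in these counts was not tested.

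The ratio of Gdf15 to Fgf21 within a mouse, with 1 added to each level, hardly depends on how libraries are scaled. It was 22.3, 185, 127 and 20.5 in TgLC livers and 9.39, 8.24 and 3.76 in TgL livers. All TgLC mice were above all TgL mice, with TgLC 2 and 3 far above TgLC 1 and 4. The high ratios of TgLC 2 and 3 rest on 2 and 6 reads of Fgf21, against 16 and 23 in TgLC 1 and 4. The log2 difference was 3.11 (exact permutation test, p = 0.0571, adjusted over the 4 ratios computed p = 0.0762), and 0.0571 is the smallest p possible, so no ratio could pass the threshold.

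Angptl4, an inhibitor of lipoprotein lipase made in liver and fat, had 634, 682, 741 and 934 normalized counts in TgLC livers and 932, 708 and 530.2 in TgL livers. The groups covered nearly the same range, and the log2 fold change was 0.07 (SE 0.20, 95% confidence interval -0.39 to 0.53, limma adjusted p = 0.821). Its sign turned without TgLC 4 (-0.04), without TgL 3 (-0.135), in TgLC 1 and 2 against TgL 1 and 2 (-0.30) and under equal library totals (-0.25).

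Angptl8, an insulin- and feeding-induced regulator of lipoprotein lipase, had 102, 116, 313 and 160.3 normalized counts in TgLC livers and 464, 271 and 203 in TgL livers. TgLC 1, 2 and 4 were below all TgL mice, and TgLC 3 was above TgL 2 and 3. The log2 fold change was -0.91 (SE 0.40, 95% confidence interval -1.81 to -0.01), which did not pass after adjustment (limma adjusted p = 0.114). The call turned on TgLC 3, without which the log2 fold change was -1.24 (limma adjusted p = 0.0157). It also passed in TgLC 1 and 2 against TgL 1 and 2 (-1.70, limma adjusted p = 0.0022) and under equal library totals (-1.23, limma adjusted p = 0.0287), and its adjusted p over all 14 alternatives ran between 0.0022 and 0.361. Angptl8 (chr9:21835510-21837347, plus strand) lies within Dock6 on the opposite strand, which had 183 normalized counts on average in TgLC livers and 267 in TgL livers. This overlap is of whole gene spans, and whether exons of the pair overlap was not checked. The sources used here do not say whether the authors' counting used strand, so whether any reads were shared is not known.

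Lect2, a chemotactic factor secreted by hepatocytes, had 444, 565, 819 and 657 normalized counts in TgLC livers and 1134, 959 and 1025 in TgL livers. The groups did not overlap, and TgLC 3 came nearest to the TgL mice. A log2 fold change of -0.77 (SE 0.19, limma adjusted p = 0.0151) resulted. The call was lost without TgL 1 (-0.71, limma adjusted p = 0.0677), and over the 14 alternatives the adjusted p lay between 0.0014 and 0.0677. In TgLC 1 and 2 against TgL 1 and 2 the log2 fold change was -1.06. Lect2 (chr13:56542464-56548502, minus strand) overlaps no other gene.

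Selenop, the plasma carrier of selenium, had 26457, 26677, 42014 and 33081 normalized counts in TgLC livers and 51872, 48633 and 47812 in TgL livers. No TgLC mouse reached the lowest TgL mouse, although TgLC 3 came close. The log2 fold change was -0.65 (SE 0.20, limma adjusted p = 0.0352), and this call was not stable. It was lost on leaving out TgLC 1, TgLC 2, TgLC 4, TgL 1, TgL 2 or TgL 3, with log2 fold changes of -0.57, -0.57, -0.67, -0.62, -0.66 and -0.67, and limma adjusted p values between 0.0568 and 0.113. Without TgLC 3 it passed, at -0.79. Its sign was negative in all 14 alternatives. Ccdc152 runs over Selenop (chr15:3268547-3280508, plus strand) on the opposite strand and averaged 127 normalized counts in TgLC livers and 61.4 in TgL livers, far below Selenop itself.

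Ahsg and Fetub are paralogs that lie side by side on the plus strand of chromosome 16, at chr16:22891277-22899449 and chr16:22918334-22939778, with 18884 bases between them. Ahsg, a mineral-binding protein and an inhibitor of the insulin receptor, had 87949, 76219, 90359.6 and 106019 normalized counts in TgLC livers and 77599.6, 73614 and 75608 in TgL livers. TgLC 2 lay within the TgL range and the other TgLC mice above it, and the log2 fold change was 0.24 (SE 0.19, 95% confidence interval -0.19 to 0.67, limma adjusted p = 0.361), turning to -0.07 under equal library totals. Fetub, an inhibitor of the egg protease ovastacin in mice, had 4996, 5365, 6473 and 6315 normalized counts in TgLC livers and 3708, 3919.7 and 3583 in TgL livers. Every TgLC mouse was above every TgL mouse, by a margin wider than the spread among TgL mice. The log2 fold change was 0.62 (SE 0.13, limma adjusted p = 0.0066). The call held without any single mouse and was lost under equal library totals (0.31, limma adjusted p = 0.0582, range over 14 alternatives 0.0058 to 0.0582). The ratio of Fetub to Ahsg was 0.0568, 0.0704, 0.0716 and 0.0596 in TgLC livers and 0.0478, 0.0533 and 0.0474 in TgL livers. It was higher in all TgLC mice, by 0.38 on the log2 scale (exact permutation test, p = 0.0571, adjusted p = 0.0762).

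**Figure D2:**
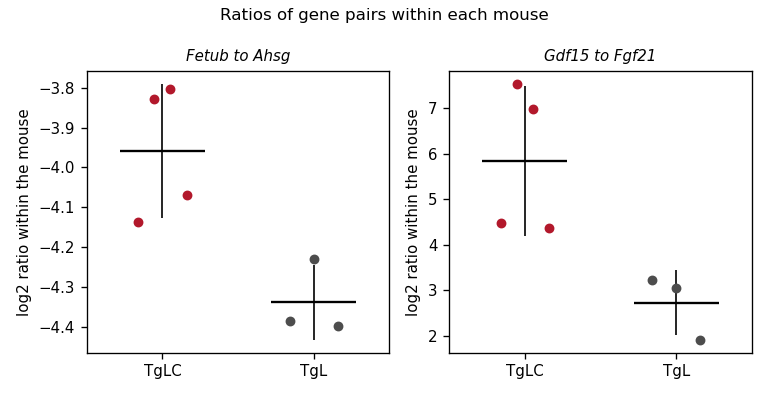
Ratios of gene pairs within each mouse on a log2 axis, TgLC (red, n = 4) left of TgL (grey, n = 3), with mean and SD. The groups are apart for Fetub to Ahsg and for Gdf15 to Fgf21.

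Enho, the adropin gene, had 160.0, 159.7, 157.8 and 209 normalized counts in TgLC livers and 279.9, 216 and 132 in TgL livers. TgLC mice lay inside the wider TgL range, with a log2 fold change of -0.23 (SE 0.24, 95% confidence interval -0.77 to 0.32, limma adjusted p = 0.508), and it was 0.02 without TgL 1. In TgLC 1 and 2 against TgL 1 and 2 it was -0.62 (limma adjusted p = 0.0193), where the range over the 14 alternatives was 0.0193 to 0.969. Enho (chr4:41638144-41640324, minus strand) shares its position with Dnaic1 and Gm12406 on the other strand, which averaged 10.1 and 0.751 normalized counts in TgLC livers and 6.29 and 4.44 in TgL livers.

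**Figure D3:**
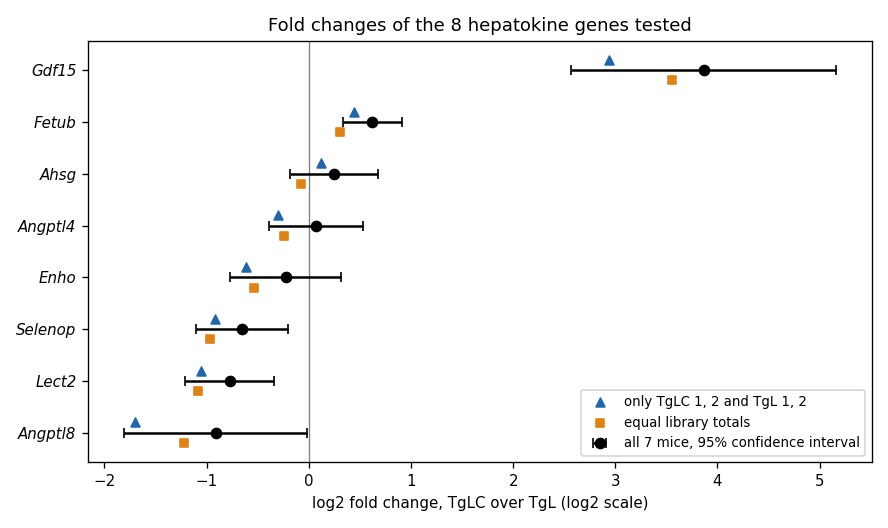
Log2 fold changes (TgLC over TgL) of the 8 hepatokine genes tested, from all 7 mice with 95% confidence intervals (black). Points without intervals are from TgLC 1 and 2 against TgL 1 and 2 (blue triangles) and under equal library totals (orange squares). Gdf15 stands at 3.86, and Ahsg and Angptl4 lie on the other side of 0 under equal library totals.

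Divided by the exonic length of each gene, the levels spanned several orders of magnitude. In TgLC livers the order of mean normalized counts per kb was Ahsg, Selenop, Fetub, Lect2, Gdf15, Angptl4, Angptl8, Enho and Fgf21, with Ahsg at 41027 per kb, Gdf15 at 314 per kb and Fgf21 at 12.4 per kb. In TgL livers it was Ahsg, Selenop, Fetub, Lect2, Angptl8, Angptl4, Enho, Gdf15 and Fgf21, with Ahsg at 34414 per kb, Gdf15 at 27.9 per kb and Fgf21 at 5.88 per kb. Gdf15 thus held rank 5 in TgLC livers and rank 8 in TgL livers. In TgLC livers the neighbours between Lect2 and Enho overlapped in range over the mice. In TgL livers the same held for Angptl8 with Angptl4, Angptl4 with Enho and Gdf15 with Fgf21. Compared within each mouse, Lect2 was above Gdf15 and Gdf15 above Angptl4 in every TgLC liver. The order of Angptl4, Angptl8 and Enho changed between TgLC mice. Each of the TgL pairs named kept its order in every TgL mouse. Ahsg alone took 0.748% of all reads in genes in TgLC livers and 0.781% in TgL livers, and Selenop took 0.265% in TgLC livers and 0.511% in TgL livers.

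The receptors and partners of the hepatokines had 16 genes tested, of which 4 rose and 5 fell (median log2 fold change 0.23), 56.2% called beside 31.2% of all genes. Klb, the beta-Klotho co-receptor for FGF21, had 238 to 351 normalized counts in TgLC livers and 492 to 578 in TgL livers, a log2 fold change of -0.82 (limma adjusted p = 0.0046). Fgfr1 rose by 1.57 and Fgfr4, the main FGF receptor of hepatocytes, by 0.75, while Fgfr3 fell by 1.73 (log2). Tie1, an endothelial receptor for LECT2, passed at 0.61 and missed the threshold without TgLC 1, TgLC 2, TgL 1, TgL 2 or TgL 3 (0.51, 0.50, 0.58, 0.68 and 0.56, limma adjusted p = 0.0783 to 0.135) and under equal library totals (0.29, limma adjusted p = 0.300), with no filter and without an intensity trend (limma adjusted p = 0.0536 and 0.0685). The endothelial markers Pecam1 and Fcgr2b also rose (0.61 and 0.77) and Oit3 fell by 0.85, and the other 7 of the 10 did not pass. Thus 30% of these markers were called, beside 31.2% of all genes. The summed level of the 10 was 3767 to 6297 normalized counts in TgLC livers and 5082 to 5148 in TgL livers, none was at 0, and their part in Tie1 was not tested. Gfral was not analysed here. Among the lipases that ANGPTL proteins inhibit, Lpl had 980, 774, 321 and 1217 normalized counts in TgLC livers and 271, 240 and 243 in TgL livers, a log2 fold change of 1.55 that missed the threshold without TgL 2 (1.52, limma adjusted p = 0.0545). Hepatic lipase, Lipc, had 81.1 to 490 normalized counts in TgLC livers and 2008 to 2096 in TgL livers, and fell by 3.14 (log2). Endothelial lipase, Lipg, fell by 2.92. The extracellular lipases therefore moved in both directions, with Lpl higher and Lipc and Lipg lower in TgLC livers.

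Genes of the ATF4 arm of the stress response, a known inducer of Gdf15 and Fgf21, had 18 members tested, of which 11 rose and 1 fell (median 0.62), 66.7% called beside 31.2% of all genes. Atf4 itself rose by 0.60 (limma adjusted p = 0.0028). Asns, which makes asparagine, had 112 to 364 normalized counts in TgLC livers and 1.99 to 9.18 in TgL livers, and rose by 4.97. Psat1, of serine synthesis, rose by 3.66, Chac1, a glutathione-degrading enzyme, by 2.90 and Ddit4, an inhibitor of mTORC1, by 2.76. Shmt2, a mitochondrial enzyme of serine and glycine use, fell by 0.65 and missed the threshold without TgL 1 or TgL 2 (-0.59 and -0.64, limma adjusted p = 0.0867 and 0.0713). Ddit3, which encodes CHOP, had 47.6 to 62.1 normalized counts in TgLC livers and 39.8 to 50.1 in TgL livers, and did not pass (log2 fold change 0.41, limma adjusted p = 0.128).

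Of 20 genes under PPARα and CREB3L3, both activators of Fgf21 in fasting, none rose and 8 fell (median -0.39), 40% called, all lower, beside 15.0% of all genes that fell. Ppara showed no obvious change by qPCR in the pair-fed TgL livers of the paper. Here it had 316 to 406 normalized counts in TgLC livers and 1093 to 1519 in TgL livers, and fell by 1.89 (log2). Its targets Cyp4a14 and Cyp4a10, fatty acid hydroxylases, fell, with log2 fold changes of -3.45 and -2.87, as did the lipase inhibitor G0s2 (-2.77) and the fatty acid carrier Fabp1 (-2.61). Creb3l3 had a log2 fold change of 0.56 and did not pass (limma adjusted p = 0.0904), but did without TgLC 2 (0.69, limma adjusted p = 0.0497). Of 18 genes of SREBP-1, LXR and ChREBP, which drive lipogenesis and Angptl8, 16 fell and none rose (median -1.81), 88.9% called beside the same 15.0%. Srebf1 (-1.69) and Mlxipl, which encodes ChREBP (-2.29), both fell. Nr1h3, encoding LXRα, had a log2 fold change of -0.17 and did not pass (limma adjusted p = 0.422), but passed in TgLC 1 and 2 against TgL 1 and 2 (-0.42, limma adjusted p = 0.0159) and under equal library totals (-0.49, limma adjusted p = 0.0186). Among their targets Scd1, the stearoyl-CoA desaturase, had 435 to 3303 normalized counts in TgLC livers and 43246 to 182573 in TgL livers, a log2 fold change of -6.13. Pnpla3 (-3.69), Pklr (-3.03) and Elovl6 (-2.90) fell as well.

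The genes of selenium use and selenoproteins had 19 members tested, of which 2 rose and 4 fell (median -0.15), a share of 31.6% called beside 31.2% of all genes. Dio1, the deiodinase that activates thyroid hormone, had 62.1 to 274 normalized counts in TgLC livers and 752 to 1481 in TgL livers and fell by 2.81. Sepsecs, which completes selenocysteine on its tRNA, fell by 0.70, Selenoi fell by 0.73 and Txnrd2 fell by 0.81, the last missing the threshold without TgL 2 (-0.77, limma adjusted p = 0.0589). Selenos and Selenof, both of the endoplasmic reticulum, rose by 0.68 and 0.63. Sephs2, which makes selenophosphate, and Secisbp2, which binds the selenocysteine element, had log2 fold changes of -0.25 and 0.10 and did not pass (limma adjusted p = 0.298 and 0.613), and Secisbp2 turned to -0.22 under equal library totals. Sephs2 passed in TgLC 1 and 2 against TgL 1 and 2 (-0.53, limma adjusted p = 0.0105) and under equal library totals (-0.57, limma adjusted p = 0.0151). Selenop therefore fell beside some selenoprotein genes and opposite to others.

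The cystatin superfamily, which includes Ahsg and Fetub, had 7 genes tested, of which 5 rose and none fell (median 0.62), 71.4% called beside 16.2% of all genes that rose. Under equal library totals 3 rose, beside 8.87% of all genes. Kng1 and Kng2, the kininogens, rose by 1.72 and 1.45 and Hrg, the histidine-rich glycoprotein, by 1.57. Hrg had 19593 to 30800.04 normalized counts in TgLC livers and 7087 to 8955 in TgL livers, so that its groups were apart. Fetub at 0.62 and Ahsg at 0.24 had smaller log2 fold changes than the kininogens.

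Other secreted liver factors had 29 genes tested, of which 10 rose and 4 fell (median 0.46), 48.3% called beside 31.2% of all genes, and their summed level was 246122 to 284337 normalized counts in TgLC livers and 100191.9 to 107849 in TgL livers. Lcn2, an acute-phase siderophore carrier that also lowers appetite in mice, had 34253 to 43272 normalized counts in TgLC livers and 165 to 597 in TgL livers, a rise of 7.09 (log2). The acute-phase protein Orm1 rose by 3.81, the activin antagonist Fst by 3.21 and Tsku, a hepatokine of energy balance, by 2.85. Igfbp2 fell by 2.50 and Dpp4 fell by 1.42. Rbp4, the retinol carrier, passed at -0.79 and missed the threshold without TgLC 1, TgLC 2, TgLC 4, TgL 1 or TgL 2 (-0.63, -0.68, -0.89, -0.68 and -0.71, limma adjusted p = 0.0512 to 0.161), with no filter and without an intensity trend (limma adjusted p = 0.0641 and 0.0713). The liver transcription factors had 18 genes tested, of which 5 rose and 2 fell (median -0.15), 38.9% called beside 31.2% of all genes. The mRNA of Stat3 rose by 1.28 and that of Foxo1 by 0.78. LIF activates STAT3 through phosphorylation of the protein, which mRNA levels do not measure. The paper reported more phosphorylated STAT3 in TgLC livers, with total STAT3 protein unaffected. Prox1 passed at 0.68 and missed the threshold without TgL 1 or TgL 2 (0.62 and 0.56, limma adjusted p = 0.0521 and 0.0519) and under equal library totals (0.37, limma adjusted p = 0.103). Foxa3 passed at 0.80 and missed it without TgLC 3, TgLC 4, TgL 1 or TgL 2 (0.77, 0.67, 0.57 and 0.80, limma adjusted p = 0.0528 to 0.114), under equal library totals (0.49, limma adjusted p = 0.123) and without an intensity trend. Hnf4a, a central regulator of hepatocyte genes, passed at 0.45 and missed it without any 1 mouse other than TgLC 1 (0.33 to 0.54, limma adjusted p = 0.0513 to 0.122), under equal library totals (0.14, limma adjusted p = 0.406), in TgLC 1 and 2 against TgL 1 and 2 (0.27, limma adjusted p = 0.0741) and with no filter (limma adjusted p = 0.0715). Foxa1 passed at -1.07 and missed it without TgLC 1, TgLC 2, TgLC 3, TgL 1 or TgL 2 (-0.81, -1.10, -1.10, -0.93 and -0.87, limma adjusted p = 0.0588 to 0.154), with the title run as a covariate and without an intensity trend. Cebpa had a log2 fold change of -0.54 and did not pass (limma adjusted p = 0.245), but passed without TgLC 3 (-0.82, limma adjusted p = 0.0299) and in TgLC 1 and 2 against TgL 1 and 2 (-1.24, limma adjusted p = 0.000135).

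**Figure D4:**
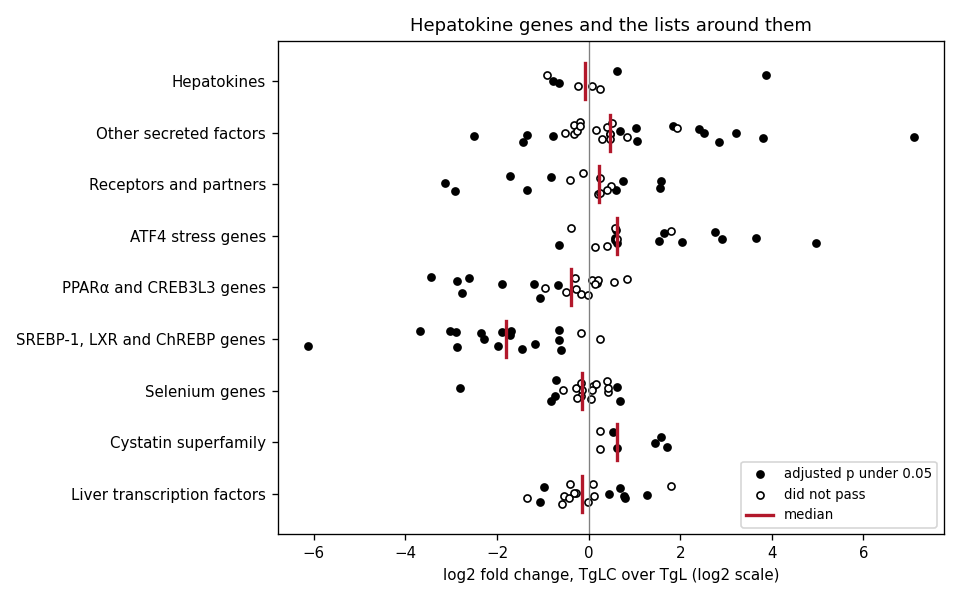
Log2 fold changes (TgLC over TgL) of the tested genes of the hepatokine list and 8 lists around it, with filled points for an adjusted p under 0.05 (limma), open points for the others and a red line at the median. The hepatokines have a median of -0.08, and the SREBP-1, LXR and ChREBP genes one of -1.81.

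Likeness of pattern was measured as the root mean square distance between mean-centred log2 profiles over the 7 mice, among 7976 genes that averaged 100 or more normalized counts, and is a description. The 3 genes nearest to Gdf15 were Chac1, Hp and Cadm4, at distances of 0.66, 0.69 and 0.69. Chac1 had 309, 245, 448 and 265 normalized counts in TgLC livers and 66.2, 43.8 and 22.4 in TgL livers, with TgLC 3 highest and TgL 3 lowest as for Gdf15. Otherwise the order within TgLC mice differed, with TgLC 2 lowest for Chac1 and TgLC 1 lowest for Gdf15. Selenop lay nearest to Ndfip1, Pgrmc1 and Pccb (0.04, 0.06 and 0.07), and Lect2 nearest to Cd1d1, Fahd2a and Nars2 (0.06, 0.08 and 0.08). Fetub lay nearest to Mydgf, Coa7 and Uri1, and Ahsg nearest to Mrpl52, Rest and Nmt1, all within 0.06. Angptl8 had Hsph1, Klf10 and Dpys nearest at 0.23 to 0.28, Angptl4 had Mtg1, Eci2 and Fam160a2 at 0.10 to 0.12, and Enho had Pcbp4, Pcsk4 and D230025D16Rik at 0.12 to 0.17. Gdf15 was thus the member whose nearest genes were farthest from it. The profiles were not scaled to equal spread, so distances tend to be larger for genes with larger changes. Gdf15 had the largest log2 fold change of the members tested.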

How the data were processed

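Liver RNA of 4 TgLC and 3 TgL mice was sequenced in bulk after poly-T selection. Per the labels, the tools named by the authors are fastp, HISAT2 (version 2.0.5), featureCounts (version 1.5.0-p3) and, also named as the method of the test, DESeq2 (version 1.20.0). The deposited signal is the counts per gene divided by 1 size factor per mouse, and dividing by each mouse's smallest non-zero value gave whole numbers throughout (tolerance 1e-06). For the authors' genome build, annotation and strand setting: not given in the sources used here. Coordinates and exonic lengths are from GENCODE M21 and promoter windows from RefSeq (both GRCm38). Symbols matched 22679 of 23594 identifiers, and 915 stayed without.

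Genes with a mean of at least 10 were tested (13145, leaving out 10449) with limma 3.58.1 in R 4.3.3 on log2(value + 1), genotype as the only term, an intensity trend and Benjamini-Hochberg adjustment over all genes, called under 0.05. The log2 scale with a pseudocount of 1 understates changes of low genes. Single levels and ratios were tested by exact permutation over the 35 splits of the mice, two-sided by doubling the smaller tail. The fit was tested on simulated data. Each library is taken as 1 mouse from its title, and p-values measure the spread between these libraries.

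Named were all 9 hepatokines, Lif, from each list at most 4 called genes in either direction by size of change, genes picked for their role, and the 3 nearest genes by profile. The members and lists were chosen with earlier results of these data known. Alternatives were pseudocounts of 0.5 and 5, no filter, leaving out each mouse, only the mice of 1 title run, and that run as a covariate. Equal library totals and limma without a trend were chosen after seeing the data. A few genes and 2 of the 4 ratios are not reported here. Count tests were not used, since the deposited values are normalized. In 3 of the 7 columns the value of 1 read is too close to 1 for recovered reads to be checked. The reads printed for depth, Lif and Fgf21 are values divided by each mouse's smallest non-zero value, taken as 1 read. They hold under the same limit.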

Additional observations from a re-analysis of the deposited data

Results flagged for a closer look

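Of 14 groups of 4 mice examined (chance flags about 1 in 20 groups), 2 held a mouse far from the others. Enho had 160.0, 159.7, 157.8 and 209 normalized counts in the TgLC livers, and the gap of TgLC 4 to its nearest neighbour was 0.958 of the whole range in normalized counts, above Dixon's critical value for 4 samples. Lif had 10, 12, 10 and 25 reads in the TgLC livers, and the gap of TgLC 4 was 0.848 of the range in normalized counts.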

How the results depend on the processing

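Of 112 values of the 8 genes under alternatives, 93 kept direction and side of the threshold. Under equal library totals Fetub missed the threshold (0.31), Ahsg and Angptl4 turned sign (-0.072 and -0.25), Angptl8 passed (-1.23), and 1 hepatokine rose. There 3 cystatin genes and 2 transcription factors rose, 7 other secreted factors, 9 selenium genes and 6 transcription factors fell, and over all genes 1166 rose and 4330 fell, against 2127 and 1977. In TgLC 1 and 2 against TgL 1 and 2, Angptl8 (-1.70) and Enho (-0.62) passed, Angptl4 turned to -0.30, and 4 hepatokines, 2 ATF4 genes, 8 selenium genes and 8 transcription factors fell. Calls were also more frequent over all genes in that fit, where 2469 rose and 2600 fell, against 2127 and 1977. With no filter Selenop kept -0.65 and missed the threshold (limma adjusted p = 0.101), so 1 hepatokine fell, while over all genes 2067 rose and 2014 fell. Without a trend 1 transcription factor fell, and over all genes 1962 rose and 1806 fell. Secisbp2 turned to -0.0095 within the title run and -0.22 under equal totals. Leaving out 1 mouse gave -0.92 to -0.62 for Lect2, -0.79 to -0.57 for Selenop, -1.24 to -0.58 for Angptl8, -0.135 to 0.27 for Angptl4 and -0.53 to 0.016 for Enho. It gave 0 to 3 hepatokines that fell, 2 to 5 receptors and partners that rose, 0 to 1 ATF4 genes that fell, 0 to 1 PPARα and CREB3L3 genes that rose, 2 to 5 transcription factors that rose and 1 to 4 that fell, and over all genes 1368 (without TgL 1) to 2076 that rose and 1214 (without TgL 1) to 2036 that fell. The cause was not tested in any of these. No paired analysis was possible because the mouse numbers follow accession order and the labels pair no mice. The planned count tests were not run. At 0 to 25 reads per mouse, counting error adds to the spread of Fgf21 and Lif.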
